A study of Mus musculus with 3 samples.

Results

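Kinesins and centromere proteins were described in hematopoietic stem and progenitor cells of mouse bone marrow. Of the 24421 gene symbols in the count tables, 63 match a rule on the symbol: 44 that begin with Kif and a digit or with Kifc, and 19 that begin with Cenp and a letter. RNA was sequenced in 3 control libraries, numbered 1 to 3 as in their titles. The C57BL/6 mice carried floxed Cic alleles (Cicflox/flox) and had received tamoxifen, and the labels name no Cre for them and give no age. The cells were sorted as lineage-negative, c-Kit-positive and Sca-1-positive. The series has a further mouse group, which was not analysed here, so the values describe 1 group and no contrast of genotypes. Nothing in the labels ties each library to its own animal, so the spread between libraries may be technical.

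Kinesins are motor proteins that use ATP to move along, or take apart, microtubules. Mitotic kinesins build and position the spindle, align chromosomes and help to split the cell, whereas transport kinesins carry vesicles, organelles and other cargo between divisions. CENP proteins mark the centromere with the histone variant CENP-A, assemble the constitutive centromere-associated network upon it, and hold the outer kinetochore to which spindle microtubules attach. In bulk RNA of a sorted marrow population, fewer cells in division and less RNA per dividing cell cannot be told apart.

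Reads assigned to genes numbered 30718562, 25097769 and 30032593 in libraries 1, 2 and 3. Coordinates and exon lengths are those of GRCm38 in GENCODE M21. Levels are counts per 1000000 gene counts (CPM). Values after ± are SDs over the 3 libraries. Levels of different genes are compared per kilobase of exon (CPM per kb), and sums in CPM give only the share of reads that a list takes. Exon length counts the bases of all transcripts of a gene. Ratios and orders of genes can change if the longest transcript is taken instead. A count of 0 allows up to 0.0977, 0.120 and 0.0999 CPM in libraries 1, 2 and 3 (3 counts each), a limit that covers counting error only. The sort markers Kit, at 826 ± 71.0 CPM (SD, n = 3), and Ly6a, the Sca-1 gene, at 103 ± 9.50 CPM, were present in all libraries. Summed neutrophil markers (6 of 6 at 1 CPM or more) differed most between libraries, at 179, 44.0 and 98.9 CPM. Summed erythroid markers (5 of 5) lay between 26.0 and 29.9 CPM and B cell markers (4 of 4) between 43.7 and 46.8 CPM. Of the T cell markers only Cd4 reached a mean of 1 CPM (1 of 5), with 15.2, 5.02 and 6.69 CPM. The summed T cell markers had 16.2, 5.54 and 8.39 CPM. Cd3d had 22, 0 and 36 counts in libraries 1, 2 and 3, above 1 CPM in library 3 only. Cd8a had 7, 13 and 9 counts, and Cd3e and Cd3g were at or near 0. Stromal and endothelial markers (3 of 5, mostly Pecam1) lay between 110.4 and 127 CPM. Their part in the results below was not tested.

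Most of the 63 genes were expressed. A mean of at least 1 CPM was reached by 55 (87.3%), against 53.1% of all genes, and 4 had no count in any library. Together they took 3022, 3001 and 3141 CPM in libraries 1, 2 and 3. Sorted by role, there were 12 mitotic kinesins, 15 transport kinesins, 13 other kinesins, 13 genes of the centromere network, 6 other Cenp genes and 4 further names.

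Mitotic kinesins lay above transport kinesins in every library. The median mitotic kinesin stood at 13.6, 12.5 and 13.8 CPM per kb in libraries 1, 2 and 3, against 2.67, 3.13 and 2.57 CPM per kb for the median transport kinesin. The difference of medians, on the log2 scale of (CPM + 0.5) per kb, was 2.32, 1.94 and 2.35, a mean of 2.20 ± 0.23 (SD, n = 3), or 4.98-fold, 3.84-fold and 5.09-fold. No p is given, since the lists were chosen by function with results known and a sign-flip test on 3 libraries cannot fall below 0.25. The lists overlapped. By exon length, 11 of 12 mitotic kinesins exceeded the transport median and only Kif11 exceeded the highest transport kinesin, Kif5b. On that length Kif5b alone of 15 transport kinesins exceeded the mitotic median, and 9 exceeded the lowest mitotic kinesin, Kifc1. By longest transcript (6032 bases for Kif5b, 4858 for Kif15 and 3398 for Kif23), Kif15 and Kif23 would exceed Kif5b as well. The median gene at 1 CPM or more lay at 6.41 CPM per kb, which 10 of 12 mitotic and 4 of 15 transport kinesins exceeded. As a share of reads, mitotic kinesins summed to 1211, 1166 and 1268 CPM and transport kinesins to 522, 568 and 550 CPM, a ratio of 2.23 ± 0.151. Sums weight the highest genes most, and summed per kb the ratio was 2.45, whereas the difference of medians with no length correction was 1.90 on the log2 scale.

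**Figure D1:**
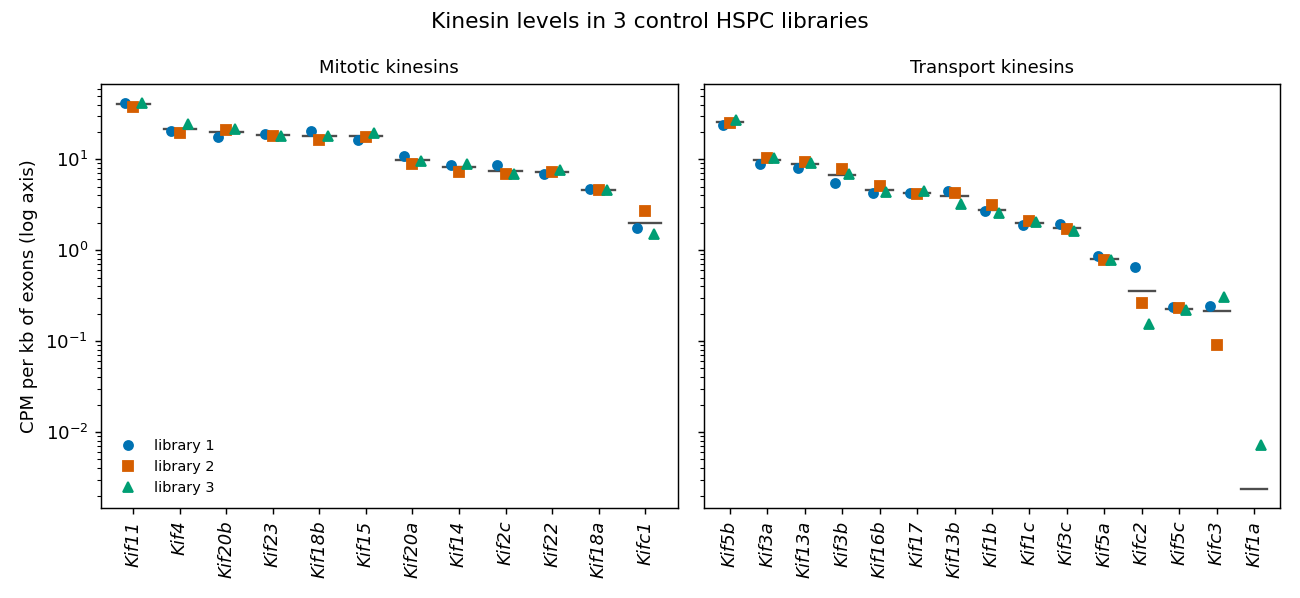
Level of each mitotic and transport kinesin in CPM per kb of exon on a log axis, with a point for each of the 3 libraries and a bar at their mean, mitotic kinesins on the left and transport kinesins on the right. Kif11 leads the mitotic kinesins at 40.4 and Kif5b the transport kinesins at 25.4, and library values of 0 for Kif1a are not drawn.

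Among the motors that push spindle poles apart, Kif11, the kinesin-5 that slides antiparallel microtubules (chromosome 19, 37376403 to 37421859, plus strand, ENSMUSG00000012443.4), had 310.4, 282 and 311 CPM in libraries 1, 2 and 3. Its 40.4 ± 2.21 CPM per kb ranked 865 of 12874 genes at 1 CPM or more. Kif15, a kinesin-12 that can maintain spindle bipolarity beside Kif11 (chromosome 9, 122951046 to 123018733, plus strand, ENSMUSG00000036768.6), had 179.6, 195 and 216 CPM, or 17.9 ± 1.64 CPM per kb. Kif11 stood 2.27 ± 0.242 times as high as Kif15 per kb, and the libraries of the pair did not overlap. Kif11 was close to Tpx2, which encodes a microtubule-binding spindle factor that interacts with Kif11, with a ratio of 1.02, 1.04 and 1.01 per kb in the 3 libraries. Relative to its mean, that ratio varied least among the 19 gene pairs compared. The sizes of both ratios depend on the length used. Exons of Kif11, Kif15 and Tpx2 cover 7461, 11020 and 4677 bases, and their longest transcripts 4819, 4858 and 4365 bases. By longest transcript, Kif11 would lie well above Tpx2 and less far above Kif15.

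Of the chromokinesins, which bind chromosome arms, Kif4 (chromosome X, 100625737 to 100727214, plus strand) had 114, 108 and 136 CPM, highest in library 3. Its 21.6 ± 2.70 CPM per kb exceeded Prc1, the midzone bundling protein that Kif4 carries, with a ratio of 1.74 ± 0.154. That order depends on the length used. Exons of Kif4 and Prc1 cover 5514 and 8225 bases, and their longest transcripts 4983 and 3645 bases. By longest transcript, Prc1 would lie above Kif4. Kif22, which pushes chromosomes from the poles, was lower at 7.25 ± 0.304 CPM per kb, with 34.1, 35.6 and 37.0 CPM. Exon bases of Kif4 overlap Pdzd11 over 15.1% of their length, and counts in such stretches are uncertain.

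Kinesins of the midzone and of cytokinesis varied widely in level. Kif23, the motor subunit of centralspindlin (chromosome 9, 61915905 to 61946774, minus strand, ENSMUSG00000032254.10), had 151, 141 and 141 CPM, or 18.3 ± 0.734 CPM per kb. Its partner in that complex, Racgap1, lay lower, with a Kif23 to Racgap1 ratio of 1.49, 1.92 and 1.59 per kb. Kif20a, which brings the chromosomal passenger complex to the midzone, had 47.4, 38.5 and 41.7 CPM and 9.80 ± 1.04 CPM per kb. Its ratio to Aurkb, the kinase of that complex, was 0.307 ± 0.0136, so the kinase gene stood higher in every library. Kif20a shares 29.3% of its exon bases with Cdc23 on the opposite strand, which the counting could not be shown to separate. Kif20b, a relative that acts in late cytokinesis, had 123, 148 and 148 CPM, lowest in library 1, and 20.1 ± 2.06 CPM per kb. Kif14, which binds Prc1 and citron kinase at the midbody, averaged 85.8 ± 8.67 CPM, or 8.28 ± 0.837 CPM per kb.

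The motors that shorten or dampen microtubule ends were spread over a wide range as well. Kif18b, which limits astral microtubules, had 72.3, 57.9 and 65.2 CPM and 18.2 ± 2.01 CPM per kb. Kif18a, which dampens chromosome movements at metaphase, had 45.8, 45.7 and 45.2 CPM, the narrowest spread of the mitotic kinesins, and lay at only 4.63 ± 0.0337 CPM per kb. Kif2c, the centromeric depolymerase, averaged 32.4 ± 4.30 CPM, or 7.42 ± 0.985 CPM per kb. Kifc1, a minus-end motor that focuses spindle poles, had the lowest level of the list, 6.05, 9.28 and 5.09 CPM and 2.00 ± 0.643 CPM per kb. This low value is uncertain, because 39.7% of its 50-base words also occur elsewhere, mainly in its near copy Kifc5b, and reads that align to several places were not counted. Kifc5b itself had 6.54, 5.30 and 3.90 CPM, highest in library 1, whereas Kifc1 was highest in library 2.

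Transport kinesins covered a wider range, and a few ubiquitous motors stood well above the neuronal ones. Kif5b, the widely expressed kinesin-1 heavy chain, had 191, 199 and 218 CPM, highest in library 3, and 25.4 ± 1.75 CPM per kb. Its relatives Kif5a and Kif5c, best known from neurons, lay at 0.810 ± 0.0535 CPM per kb and 0.228 ± 0.00896 CPM per kb. Kif11 stood 1.59 ± 0.124 times as high as Kif5b per kb. Kif5b in turn exceeded Klc1, a light chain that links kinesin-1 to cargo, with a ratio of 3.30 ± 0.528.

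Kinesin-2 carries cargo in cilia and along cytoplasmic microtubules. Its Kif3a subunit had 31.6, 37.4 and 36.7 CPM (9.83 ± 0.875 CPM per kb). Of its alternative partners, Kif3b had 30.7, 44.5 and 38.7 CPM. Kif3c had 14.4, 12.6 and 12.1 CPM and shares 40.7% of its exon bases with 1110002L01Rik. Per kb, Kif3a to Kif3b stood at 1.48 ± 0.150, Kif3c to Kif3b at 0.270 ± 0.0761, and Kif3a to Kifap3, the accessory subunit, at 1.00 ± 0.212. Kif3a thus exceeded Kif3b in every library, and its ratio to Kifap3 lay on either side of 1 between libraries. Kif17, the homodimeric kinesin-2 of cilia and dendrites, lay at 4.28 ± 0.175 CPM per kb.

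Among the kinesin-3 motors of vesicles and endosomes, Kif13a, a carrier of endosomes, led with 71.5 ± 5.30 CPM and 8.84 ± 0.655 CPM per kb. Kif16b, which moves early endosomes, lay at 4.59 ± 0.420 CPM per kb, Kif13b at 3.97 ± 0.669 CPM per kb, Kif1b at 2.79 ± 0.301 CPM per kb and Kif1c at 2.01 ± 0.110 CPM per kb. Kif1a, the carrier of synaptic vesicle precursors, had 0, 0 and 2 counts, under the limit that a count of 0 allows. The minus-end motors were low too, Kifc2 with 78, 26 and 18 counts in libraries 1, 2 and 3, and Kifc3 with 40, 12 and 49 counts. Kifc2 was highest in library 1 and Kifc3 lowest in library 2.

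A motif of cell cycle genes was found in most promoters of mitotic kinesins. RefSeq promoter windows (GRCm38.p6, 250 bases before to 50 after each start) matched 53 of the 63 genes, among them 11 mitotic and 10 transport kinesins, and Kif20a, Kif5b, Kif13b, Kif5a, Kifc2 and Kifc3 were not matched. Windows were searched on both strands for the cell cycle genes homology region (CHR), an element of late cell cycle promoters, as TTTGAA or TTCGAA, and for the CCAAT box, as CCAAT or its reverse complement. Neither motif contains the other. A CHR match was present in 10 of 11 mitotic kinesins (90.9%), against 1 of 10 transport kinesins (Kif1a, in 1 of its windows), 21.7% of 27025 genes with a window and 16.5% of 9815 such genes at 1 CPM or more. Within 50 bases of the start the counts were 8 of 11 mitotic and 1 of 10 transport kinesins, against 6.12% of all genes. A CCAAT box was present in 7 of 11 mitotic and 3 of 10 transport kinesins, against 41.1% of all genes. A CHR together with at least 2 CCAAT boxes was found in 4 of 11 mitotic and 0 of 10 transport kinesins, against 2.68% of all genes. Median GC content was 60.7% in mitotic and 68.2% in transport windows, against 52.7% over all genes and 60.3% over those at 1 CPM or more. Matches to a motif depend on base composition. A match is a description of letters and not evidence of binding.

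Stretches of 80 bases just before the RefSeq start are shown for 3 mitotic kinesins with a CHR there and for 3 transport kinesins without it. They are written 5′ to 3′ on the gene's strand, with CHR (TTTGAA, or TTCAAA when read from the other strand) and CCAAT (or ATTGG) matches in capitals.
Kif11 (chr19:37376302-37376381, plus strand): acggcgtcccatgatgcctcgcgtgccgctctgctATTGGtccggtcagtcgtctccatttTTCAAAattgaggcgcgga
Kif15 (chr9:122951001-122951080, plus strand): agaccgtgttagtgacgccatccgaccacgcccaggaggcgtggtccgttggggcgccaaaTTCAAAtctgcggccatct
Kif22 (chr7:127042421-127042500, minus strand): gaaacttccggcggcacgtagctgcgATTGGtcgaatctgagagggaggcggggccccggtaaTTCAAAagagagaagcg
Kif3a (chr11:53567289-53567368, plus strand): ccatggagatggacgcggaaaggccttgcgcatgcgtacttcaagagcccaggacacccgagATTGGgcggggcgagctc
Kif3b (chr2:153291336-153291415, plus strand): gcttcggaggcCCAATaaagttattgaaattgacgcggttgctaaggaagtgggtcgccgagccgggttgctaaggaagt
Kif1c (chr11:70700468-70700547, plus strand): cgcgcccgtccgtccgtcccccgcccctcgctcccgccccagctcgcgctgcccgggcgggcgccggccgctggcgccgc

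In Kif11, Kif15 and Kif22 the CHR begins at -19, -19 and -17, counted in bases from the RefSeq start, and Kif11 and Kif22 also have a CCAAT box upstream of it. The near-equal placement holds for RefSeq starts only. Against the outermost GENCODE starts, the CHR precedes the transcript of Kif11 but lies within those of Kif15 and Kif22. The stretches of Kif3a and Kif3b hold a CCAAT box and no CHR, and that of Kif1c holds neither. In 4 further mitotic kinesins the CHR lies just after the RefSeq start, shown by the 10 bases before and 20 bases after the start.
Kif23 (chr9:61946780-61946809, minus strand): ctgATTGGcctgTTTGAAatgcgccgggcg
Kif18b (chr11:102925105-102925134, minus strand): gcggaccggctagTTTGAAcgcgccgcgcc
Kifc1 (chr17:33890614-33890643, minus strand): ggaggttgaaaTTCAAAagtggcgggtgtg
Kif20b (chr19:34922348-34922377, plus strand): gcgccgagccgccattgTTTGAATTTGAAa

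In these the CHR begins at base 3, 4, 2 and 8 after the start, and Kif20b holds a second copy at base 14. The RefSeq start of Kif23 lies 25 bases upstream of the outermost GENCODE start, so its CHR precedes the GENCODE transcript. Kif4 has it at base 20. Kif2c and Kif14 have a match farther out, at -103 and -228, but their RefSeq starts lie 3867 and 1505 bases downstream of the outermost GENCODE start, so their windows may miss the main promoter. That distance is -21 (upstream), 35, 51 and 328 bases for Kif11, Kif15, Kif22 and Kif4. Among transport kinesins it is 11816 bases for Kif17, counted as lacking the CHR, and 19471 bases for the Kif1a window that holds one, so the same limit applies to them. Kif18a has neither motif in its window.

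**Figure D2:**
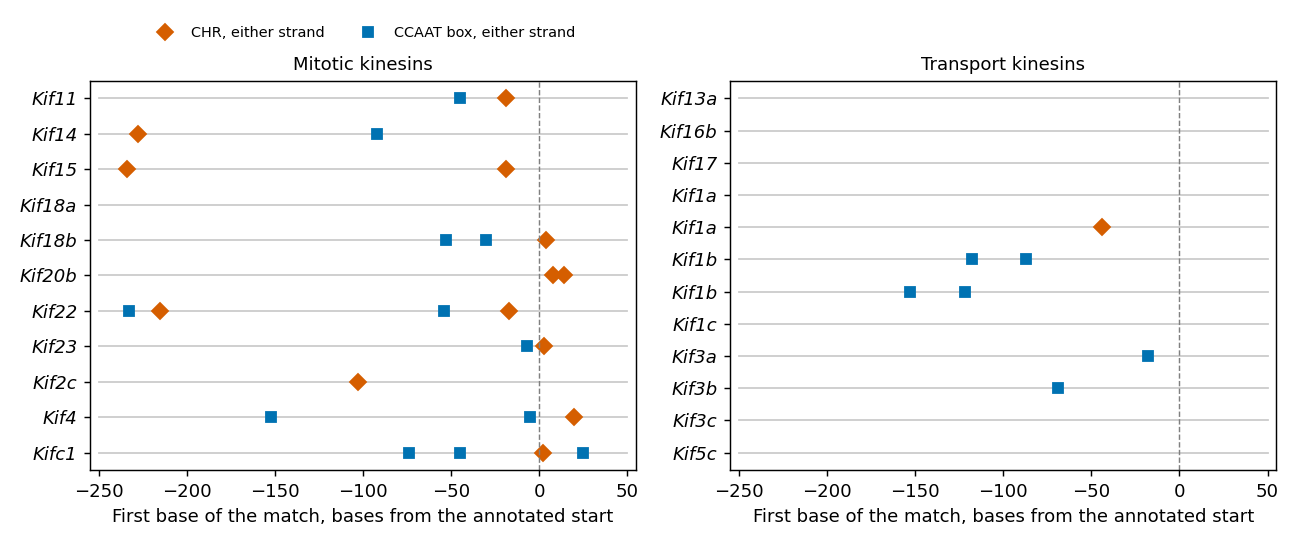
First base of each CHR match (diamonds) and CCAAT match (squares), in bases from the RefSeq start (dashed line), for each promoter window of the mitotic kinesins on the left and of the transport kinesins on the right. CHR matches are drawn for 10 of 11 mitotic kinesins and for 1 of the windows of Kif1a.

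Other kinesins were mostly low. Kif2a, a microtubule depolymerase that works in both dividing and resting cells, was the exception with 159.8, 160.0 and 166 CPM and 25.3 ± 0.558 CPM per kb, and 19.2% of its exon bases overlap Dimt1. Kif24, a depolymerase at centrioles, lay at 6.49 ± 0.186 CPM per kb, Kif21b at 5.73 ± 0.905 CPM per kb, Kif9, of motile cilia, at 3.31 ± 0.229 CPM per kb and Kif21a at 1.13 ± 0.257 CPM per kb. Kif12, Kif26a and Kif2b had no count in any library, and 8 of the 13 reached 1 CPM. The further names are not all motors. Kif1bp, at 31.2 ± 2.91 CPM, encodes a protein that binds kinesins, Kif16bos is an opposite-strand RNA with 1, 0 and 3 counts, and Kif4-ps, a pseudogene by its name, had no count.

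Genes of the centromere ranged from low to high. Cenpa, the centromeric histone itself (chromosome 5, 30666777 to 30674830, plus strand, ENSMUSG00000029177.9), had 88.0, 70.0 and 77.5 CPM, highest in library 1, and 13.4 ± 1.55 CPM per kb. Cenpb, which binds a satellite motif, had 11.0, 17.3 and 18.2 CPM, lowest in library 1, and 3.18 ± 0.804 CPM per kb. The pair thus moved in opposite directions between library 1 and the other libraries. Cenpa exceeded Hjurp, its chaperone, with a ratio of 4.62, 3.62 and 5.31 per kb in libraries 1, 2 and 3.

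All 13 network genes with an entry reached 1 CPM, with a median of 6.62, 7.00 and 6.30 CPM per kb. The median mitotic kinesin exceeded the median network gene by 1.00, 0.77 and 1.05 on the log2 scale, a mean of 0.94 ± 0.15 (SD, n = 3). The size of this gap depended on the length used, with a mean of 0.57 for the longest transcript and 1.47 for no length. Cenps and Cenpx have no entry under these symbols. The network's reads were steady in sum, at 418, 407 and 408 CPM, but its members differed 13.9-fold per kb. Cenpc1, the scaffold that contacts CENP-A nucleosomes, had 94.1, 99.9 and 92.5 CPM and 16.9 ± 0.691 CPM per kb. Cenpn and Cenpl, which form a dimer that reads CENP-A, lay at 12.3 ± 0.579 CPM per kb and 5.91 ± 0.551 CPM per kb, a Cenpl to Cenpn ratio of 0.484 ± 0.0578.

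Members of 1 protein subcomplex had unequal RNA levels. In the subcomplex of CENP-H, -I, -K and -M, Cenph was highest of the whole network at 20.7 ± 1.75 CPM per kb, and Cenpm, Cenpi and Cenpk lay at 8.84, 6.81 and 3.69 CPM per kb. By longest transcript (1251 bases for Cenph and 3192 for Cenpc1), Cenpc1 would lie about level with Cenph. Ratios to Cenpk were 5.61 ± 0.404 for Cenph, 1.85 ± 0.136 for Cenpi and 2.39 ± 0.178 for Cenpm, each above 1 in every library. Exons of Cenpk cover 5231 bases, against 2077 for its longest transcript, and by longest transcript these ratios would be smaller. In the subcomplex of CENP-O, -P, -Q and -U, Cenpq lay at 10.2 ± 0.908 CPM per kb and Cenpu at 5.21 ± 0.722 CPM per kb, a ratio of 1.97 ± 0.110. Cenpo and Cenpp changed order between libraries, with a Cenpo to Cenpp ratio of 1.40, 0.812 and 0.727 per kb. Exons of Cenpo, Cenpp and Cenpu overlap Adcy3, Ippk and Primpol over 22.5%, 12.6% and 26.7% of their bases. Cenpt and Cenpw, histone-fold partners that reach the outer kinetochore, lay at 4.93 ± 0.467 CPM per kb and 1.49 ± 0.396 CPM per kb. Cenpw was the lowest of the network, and the Cenpt to Cenpw ratio varied as 3.04, 4.90 and 2.56 per kb. CHR matches were found in 4 of 13 network promoters (30.8%), against 21.7% of all genes, and CCAAT boxes in 10 of 13 (76.9%), against 41.1%. RefSeq starts of Cenpt, Cenpq, Cenpm and Cenpo lie 1270, 473, 412 and 329 bases downstream of the outermost GENCODE start. Their windows too may miss the main promoter. Of the other Cenp genes, Cenpa has a CHR match at base 17 and Cenpf at base 3 after the start.

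**Figure D3:**
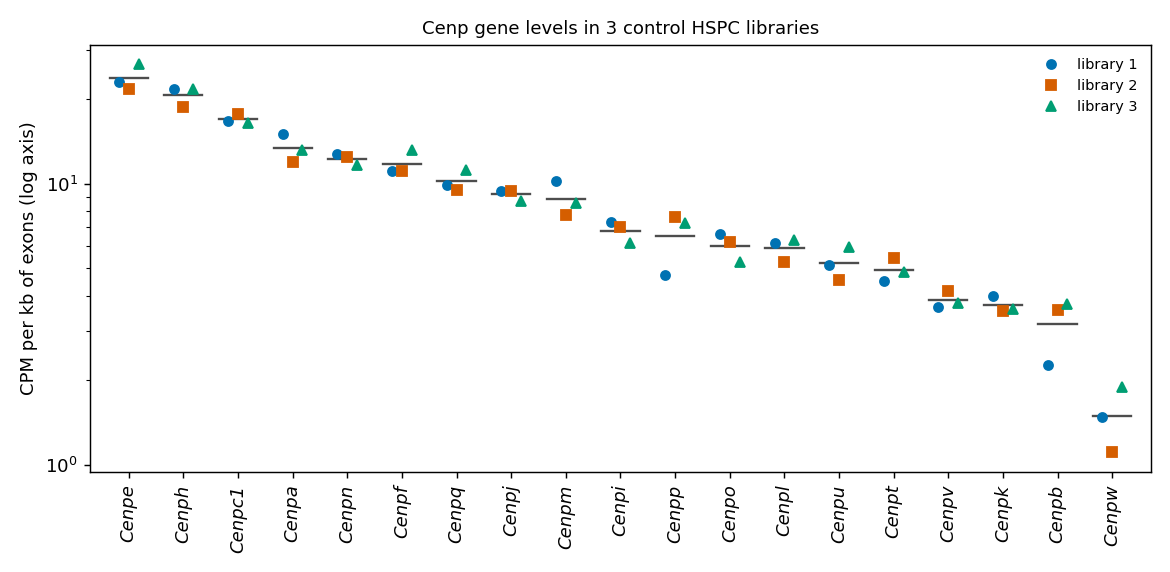
Level of each Cenp gene in CPM per kb of exon on a log axis, with a point for each of the 3 libraries and a bar at their mean, in falling order of the mean. Cenpe at 23.8 and Cenph at 20.7 stand highest and Cenpw at 1.49 lowest.

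Both outer kinetochore genes were well expressed in every library. Cenpe, itself a kinesin that brings chromosomes to the spindle equator, had 198, 187 and 229.7 CPM and 23.8 ± 2.56 CPM per kb. Cenpf, a large microtubule-binding protein, had 172, 171 and 203 CPM and 11.8 ± 1.18 CPM per kb. Both were highest in library 3, and their ratio per kb stayed at 2.06, 1.96 and 2.03. Cenpe thus lay at the height of the upper mitotic kinesins. Cenpj, which despite its name builds centrioles, had 44.7 ± 1.98 CPM (9.17 ± 0.405 CPM per kb), and Cenpv lay at 3.85 ± 0.273 CPM per kb.

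Genes whose proteins work with these motors and kinetochores were expressed as well. All 4 genes of the chromosomal passenger complex reached 1 CPM, with a median of 19.5 CPM per kb, and stood in the order Aurkb (31.9), Incenp (22.3), Birc5 (16.8) and Cdca8 (11.4). All 7 spindle checkpoint genes did so, with a median of 13.7 CPM per kb, from the kinase-like Bub1b (33.6), the anaphase activator Cdc20 (21.9) and the kinase Bub1 (20.9) down to Mad1l1 (4.59). The 10 genes of the KMN network, the microtubule receptor of the kinetochore, had a median of 8.73 CPM per kb, with Casc5 (an older symbol of Knl1, 20.0), Zwint (17.5) and Mis12 (16.8) highest and Spc25 (5.76) lowest. Of genes that load CENP-A, Mis18a lay at 6.91 ± 0.720 CPM per kb and Oip5 at 4.67 ± 0.904 CPM per kb, above Hjurp at 3.01 ± 0.454 CPM per kb. By longest transcript (1778 bases for Oip5 and 4878 for Hjurp), Hjurp would lie above Oip5. Of the spindle partners, Tpx2 lay at 39.4 ± 2.74 CPM per kb, Prc1 at 12.4 ± 0.434 CPM per kb and Racgap1 at 11.1 ± 1.75 CPM per kb. On the transport side, kinesin light chains and adaptors (6 of 7 at 1 CPM) had a median of 7.84 CPM per kb, with Trak2 (11.7), Kifap3 (10.0) and Trak1 (8.50) highest and Klc3 (0.176) lowest. Cytoplasmic dynein, the minus-end transport motor (7 of 8), had a median of 15.9 CPM per kb, above that of the transport kinesins. Its members ranged from Dynlrb1 (114), Dync1h1 (31.9) and Dynll1 (23.0) to the neuronal Dync1i1 (0.182). The means of Dync1i1 and Klc3 each rest mostly on 1 library. In libraries 1, 2 and 3, Dync1i1 had 5, 3 and 50 counts and Klc3 had 1, 30 and 5 counts.

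**Figure D4:**
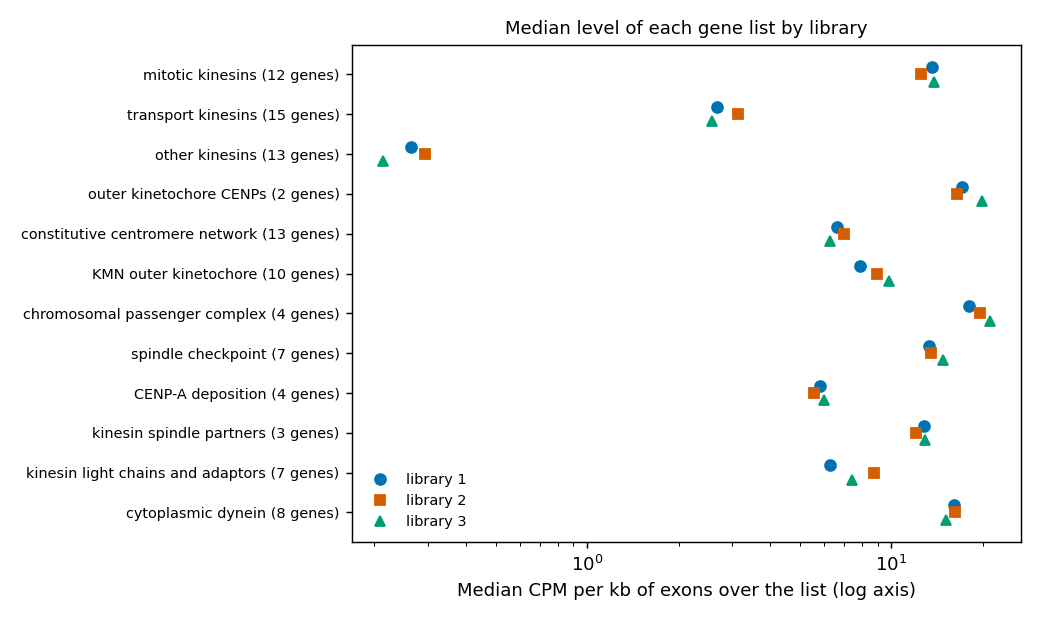
Median level of each gene list in CPM per kb of exon on a log axis, with a point for each of the 3 libraries. Mitotic kinesins lie between 12.5 and 13.8, transport kinesins between 2.57 and 3.13 and the centromere network between 6.30 and 7.00.

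Relative to gene totals, the 3 libraries gave close levels for most of these genes. Among the 55 at 1 CPM or more, the median coefficient of variation was 9.49%, against 13.2% over all 12965 genes at that level. It was 10.2% for mitotic and 9.03% for transport kinesins. Set against genes of like abundance, 33 of 55 (60.0%) varied less than the median gene of their abundance bin, where 50% would by construction. Small differences were still resolved by the read depth. Counts departed from the library totals in a chi-square test (2 degrees of freedom, Benjamini-Hochberg adjusted p under 0.05) for 41 of 55 (74.5%), against 82.6% of all genes tested, so the share for these genes was not above the background. Among them were 10 of 12 mitotic and 10 of 14 tested transport kinesins. Amplified reads are not independent molecules, so such departures include noise of library preparation.

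No kinesin or Cenp gene was called more variable than genes of its abundance. By edgeR's F test of quasi-dispersion over the trend, 0 of 55 had an adjusted p under 0.05 and 0 had an unadjusted p under 0.05, against 0.00771% (1 gene) and 4.54% (588 genes) of all genes tested. DESeq2 marked 0 of them as dispersion outliers, and 30 genes in all. The 3 libraries also led about equally often. The highest CPM was in library 1 for 17 of 55 (background 31.9%), in library 2 for 19 (background 35.6%) and in library 3 for 19 (background 32.5%). Of the mitotic kinesins, 5, 1 and 6 were highest in libraries 1, 2 and 3, against 5, 6 and 3 of the transport kinesins tested.

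**Figure D5:**
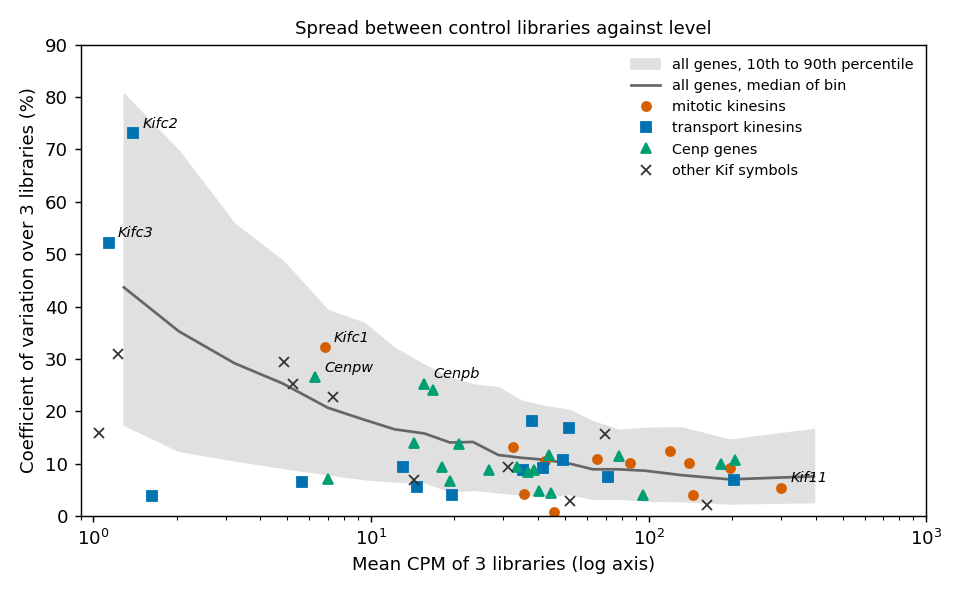
Coefficient of variation in percent over the 3 libraries against mean CPM on a log axis for the 55 kinesin and Cenp genes at 1 CPM or more, with the median of all genes in bins of abundance as a line and the middle 80% of genes shaded. Of the 55 points, 33 lie below the median of their bin.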

How the data were processed

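Per the labels' protocols, complementary DNA was made from 10 ng of RNA with a NuGEN Ovation kit that primes on poly(A) and at random, then amplified and sequenced on an Illumina HiSeq. The authors deposited unnormalized read counts for each gene symbol in a table per library. The mm10 build and the tools TopHat2 2.0.9, HTSeq and DESeq2 are named in the submitters' processing notes. The sources used here give neither the gene model nor the strand setting, which leaves reads of genes that overlap on either strand uncertain.

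Spike-ins (92 ERCC entries) and 5 HTSeq categories were left out of totals and tests. The categories hold alignments in no gene (42.9% to 48.4% of all entries), non-unique (16.0% to 17.0%) and ambiguous ones (0.666% to 0.800%). CPM was computed on gene totals. Exon lengths, coordinates and 50-base words shared between genes came from GENCODE M21 (GRCm38, the assembly of mm10), matched to 98.5% of symbols. Differences of list medians were taken within each library. Both tests between libraries covered 12965 genes whose mean reached 1 CPM and were tested on simulated counts. The chi-square test compared counts with library totals. A quasi-likelihood fit in edgeR (TMM, intercept only, robust) gave each gene's dispersion over the trend. P-values measure only the spread between these samples. Promoter windows came from RefSeq.

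The genes and lists were chosen with earlier results of these data known. Named were all listed mitotic, transport and Cenp genes with an entry, the 5 highest and 2 lowest other kinesins (3 are tied at 0), unlisted symbol matches, and of each partner list the 3 highest, the lowest and the genes of fixed pairs. A gene that this rule takes in is not reported here. Alternatives covered scaling, pseudocount, length, expression minimum, list membership, test settings and leaving out each library. Software was R 4.3.3 with edgeR 4.0.16 and DESeq2 1.42.0, and Python 3.11.15 with NumPy 2.4.6, pandas 2.3.3 and matplotlib 3.10.9.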

Additional observations from a re-analysis of the deposited data

Results flagged for a closer look

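The ERCC spike-ins, synthetic RNAs that entered no comparison above, took 1.46%, 0.945% and 0.579% of gene and spike-in counts in libraries 1, 2 and 3, which drew attention because the shares differ between libraries of 1 group. Scaled to spike-in counts in place of gene totals, 51 of the 55 kinesin and Cenp genes at 1 CPM or more (92.7%) were highest in library 3, against 94.5% of all such genes, and 53 (96.4%) were lowest in library 1, against 93.8%. Their median coefficient of variation was then 45.5%, against 47.5% over all such genes, and 9.49% by CPM. Kif11 then had 20.9, 29.6 and 53.4 counts per 1000 spike-in counts in libraries 1, 2 and 3, a library 3 to library 1 ratio of 2.55, which is also the ratio of all gene counts per spike-in count. By CPM its ratio was 1.00. Such scaling moves every gene of a library by the same factor, so differences between genes within a library stay as they are. The amount of spike-in added to each library is not given in the labels, and the cause of these shares was not tested.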

How the results depend on the processing

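The gap between mitotic and transport kinesins (2.20 on the log2 scale) kept its direction in all alternatives run, and stayed within its SD under TMM, DESeq2 size factors, totals without Rn45s and other pseudocounts. The scalings could hardly have changed it. They move every gene of a library by the same factor, which a difference within a library cancels except for the pseudocount. It was 1.96 with genes at 1 CPM or more, 1.65 with the longest transcript as length, 1.90 with no length, 2.53 as a difference of means, 2.59 with Cenpe among the mitotic kinesins, and from 2.13 to 2.33 leaving out a library. Mitotic kinesins against the centromere network (0.94) gave 0.57 with the longest transcript, 1.47 with no length, 0.69 as a difference of means, 1.10 without genes that overlap or share over 10% with others (chosen after seeing the data), and 0.89 to 1.03 leaving out a library. The cause was not tested. The ratio of summed reads (2.23) was 2.45 per kb and 2.18 to 2.31 leaving out a library. Genes at the minimum numbered 55 at 0.5 CPM, 50 at 2 CPM, 49 at 5 CPM and 54 leaving out any library. Chi-square calls numbered 37 to 43 under other filters and scalings and 28 to 30 leaving out a library. Without library 1 they were 51.9% of the kinesin and Cenp genes tested, against 51.4% of all genes, so the lower share seen with 3 libraries was lost, whereas they were 55.6% against 67.3% without library 2, and 51.9% against 64.4% without library 3. The edgeR count stayed at 0 in every setting, with 4 of 54 (7.41%) at an unadjusted p under 0.05 without library 1, against 5.63% of all genes. Mean CPM of the 59 genes with counts moved by less than its SD for all 59 under TMM and DESeq2 size factors. It moved further for 30 without Rn45s, whose removal shrinks the totals, and for 40 under spike-in scaling (chosen after seeing the data). It also stayed within its SD for all 59 when any library was left out. That outcome was fixed in advance, since leaving out 1 of 3 values cannot move their mean by a full SD. No paired analysis was possible because the files used hold 1 group. Depth limits values of under 3 counts, as for Kif1a and Kif16bos.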
